A study of Homo sapiens with 72 samples.

Results

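The genes described here are 10 transcription factors and cofactors of the B lineage, PAX5, EBF1, TCF3, IKZF1, IKZF3, SPI1, SPIB, POU2AF1, LEF1 and BACH2. They were taken by name and located by GENCODE release 44 on hg38, and they are 10 of the 20033 protein-coding genes with a canonical start. For each gene, peaks of H3K4me2, H3K4me3 and H3K27me3 were collected within 1 kb of the annotated starts and over the gene body with 3 kb flanks.

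The study compared cells of 3 established human lines with and without bryostatin, a macrolide that modulates protein kinase C, by Cut&Tag, in which an antibody tethers a transposase to a histone mark and the released fragments are sequenced. Raji is an Epstein-Barr virus positive Burkitt lymphoma line, and NALM6 and REH are precursor B acute lymphoblastic leukemia lines. Untreated cells and cells kept overnight at 37 °C with 1 nM bryostatin (so the labels, while a legend of the study gives a full day) were each profiled in 3 replicates per line and mark, which gave 54 libraries. Each line is a single established culture, nothing used here says that the replicates came from separate cultures, and p-values measure only the spread between these libraries, which may be technical.

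B cell identity is built by a small network of DNA-binding proteins. TCF3 and EBF1 open B lineage genes in early progenitors and EBF1 turns on PAX5, which holds the cells in the lineage. SPI1 and IKZF1 act from the earliest lymphoid steps, LEF1 marks precursor cells, and IKZF3, SPIB, POU2AF1 and BACH2 act mainly in later B cells. H3K4me3 sits at active starts, H3K4me2 at active starts and at enhancers, and H3K27me3 over genes silenced by Polycomb.

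The promoters of 5 of these genes are printed: PAX5 and EBF1 for their wide H3K4me3, TCF3 and SPIB for differences between the lines, and BACH2 for the H3K27me3 over its gene. Each sequence holds the 250 bases before a start, 5′ to 3′ on the strand of the gene. RefSeq promoters on GRCh38.p14 matched 7 of the 10 genes, and all 7 were identical in hg38. The sequence of EBF1 lies before a start 1960 bases inside the canonical one. Capitals mark exact matches, on either strand, to the octamer ATTTGCAT, the EBF palindrome core CCCNNGGG, the E box CAGGTG, the PU box GAGGAA, the GC box GGGCGG and the TATA box TATAAA. The coordinates are chr9:37034269-37034518 (minus strand) for PAX5, chr5:159097957-159098206 (minus) for EBF1, chr19:1652616-1652865 (minus) for TCF3, chr19:50418688-50418937 (plus) for SPIB and chr6:90296844-90297093 (minus) for BACH2.
PAX5: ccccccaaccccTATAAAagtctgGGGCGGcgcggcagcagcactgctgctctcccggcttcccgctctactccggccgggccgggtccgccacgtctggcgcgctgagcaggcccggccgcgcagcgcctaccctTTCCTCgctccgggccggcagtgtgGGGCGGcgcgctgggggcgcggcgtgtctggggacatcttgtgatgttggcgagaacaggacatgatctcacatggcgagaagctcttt
EBF1: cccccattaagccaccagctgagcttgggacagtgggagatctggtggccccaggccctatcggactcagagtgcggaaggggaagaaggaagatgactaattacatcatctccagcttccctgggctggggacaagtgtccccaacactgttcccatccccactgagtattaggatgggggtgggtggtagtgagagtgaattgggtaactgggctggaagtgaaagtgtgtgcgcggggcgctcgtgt
TCF3: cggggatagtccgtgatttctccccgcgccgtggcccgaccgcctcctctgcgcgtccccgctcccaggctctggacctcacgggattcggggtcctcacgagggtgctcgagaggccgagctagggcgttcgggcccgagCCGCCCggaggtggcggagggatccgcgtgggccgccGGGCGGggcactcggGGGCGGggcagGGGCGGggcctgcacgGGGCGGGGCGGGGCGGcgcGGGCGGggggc
SPIB: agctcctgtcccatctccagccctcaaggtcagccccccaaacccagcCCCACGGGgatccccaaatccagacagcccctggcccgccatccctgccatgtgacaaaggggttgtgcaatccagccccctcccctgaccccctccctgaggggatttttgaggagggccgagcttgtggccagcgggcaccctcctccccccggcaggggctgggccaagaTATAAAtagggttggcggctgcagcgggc
BACH2: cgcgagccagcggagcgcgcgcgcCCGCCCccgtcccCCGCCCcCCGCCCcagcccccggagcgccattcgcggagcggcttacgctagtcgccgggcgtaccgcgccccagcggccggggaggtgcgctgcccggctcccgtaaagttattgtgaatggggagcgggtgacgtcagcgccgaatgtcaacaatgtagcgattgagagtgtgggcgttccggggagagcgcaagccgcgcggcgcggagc

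The 5 sequences differed in composition. The promoter of TCF3 held 79.6% G and C and 8 GC boxes, that of BACH2 held 73.6% and 3 GC boxes, and that of PAX5 held 69.6%, 2 GC boxes, 1 PU box and 1 TATA box. BACH2 had 1.18 times the CpG expected from its base composition, which was above 99.0% of the 35116 promoters in the table, whereas SPIB had 0.262 times and EBF1 0.306 times, against a median of 0.558. SPIB held a TATA box beginning 29 bases before its start and 1 EBF palindrome core beginning 202 bases before it. None of the 6 motifs was found in the window of EBF1. Over all promoters of the same length, the octamer was found in 1.63%, the EBF palindrome core in 17.1%, the E box in 17.5%, the PU box in 23.6%, the GC box in 42.6% and the TATA box in 10.7%, and a match describes the letters of the window, not a binding site.

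Depth, read back from the smallest step of the signal, ranged from 5.12 to 47.9 M mapped reads in the 48 libraries scaled as RPKM (a read density scaled by library size), with a median of 18.8 M. The 6 libraries of NALM6 replicate 1 carried another scaling and shorter peaks, so the comparisons between untreated lines are given with and without the untreated ones. One H3K27me3 library, untreated Raji replicate 2, stood apart, with an H3K27me3 peak at the start of 52.3% of genes against 0.714% to 21.8% in the other 17 and with 35.5% of its peaks over H3K4me3 peaks against 1.61% to 12%. Of 6 B lineage markers, 6 had an H3K4me2 start peak in all untreated libraries of Raji and of REH and 4 in those of NALM6, and for H3K4me3 the numbers were 5 in Raji, 5 in REH and 3 in NALM6. Of 6 precursor B markers, an H3K4me3 start peak was present in all 3 untreated libraries for 1 in Raji and for 5 each in NALM6 and REH, and an H3K4me2 peak for 1 in Raji, 2 in NALM6 and 5 in REH. Of 6 mature B markers, an H3K4me3 start peak was present in all 3 untreated libraries for 4 in Raji and for 1 each in NALM6 and REH. For H3K4me2 the numbers were 3 in Raji, 2 in NALM6 and 2 in REH. Among them MS4A1 and CR2 had H3K4me3 in all 3 untreated libraries of Raji and in none of NALM6 and REH, while S1PR2 had it in all 3 of every line. None of 4 erythroid markers had a start peak in untreated cells, of 6 myeloid markers only CEBPE was marked in all 3 libraries of a line (H3K4me2, REH), and of 8 T and NK cell markers CD3D, CD3E, CD3G and CD2 had no start peak in any untreated library. The other 4, BCL11B, GATA3, TBX21 and NKG7, carried H3K4me2 in all 3 untreated REH libraries, GATA3 also in all 3 of NALM6 and NKG7 in all 3 of Raji. Of these 4, H3K4me3 was present in all 3 untreated libraries of a line only for BCL11B in REH and GATA3 in NALM6. Their part in the differences between lines was not tested.

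Most of these genes carried both active marks at the canonical start in all 3 lines, and 3 of them, LEF1, SPIB and IKZF3, differed in whether a peak was called at all. An H3K4me2 start peak was present in all 18 libraries for PAX5, IKZF1, SPI1, POU2AF1 and BACH2, 5 of 10 genes against 15.7% of all protein-coding genes. An H3K4me3 start peak was present in all 18 libraries for PAX5, EBF1, IKZF1 and BACH2, 4 of 10 against 20.5%. The pooled cells of a library are averaged, so fewer marked cells and less mark per cell cannot be told apart, and a missing peak means only that none was called at that depth.

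**Figure D1:**
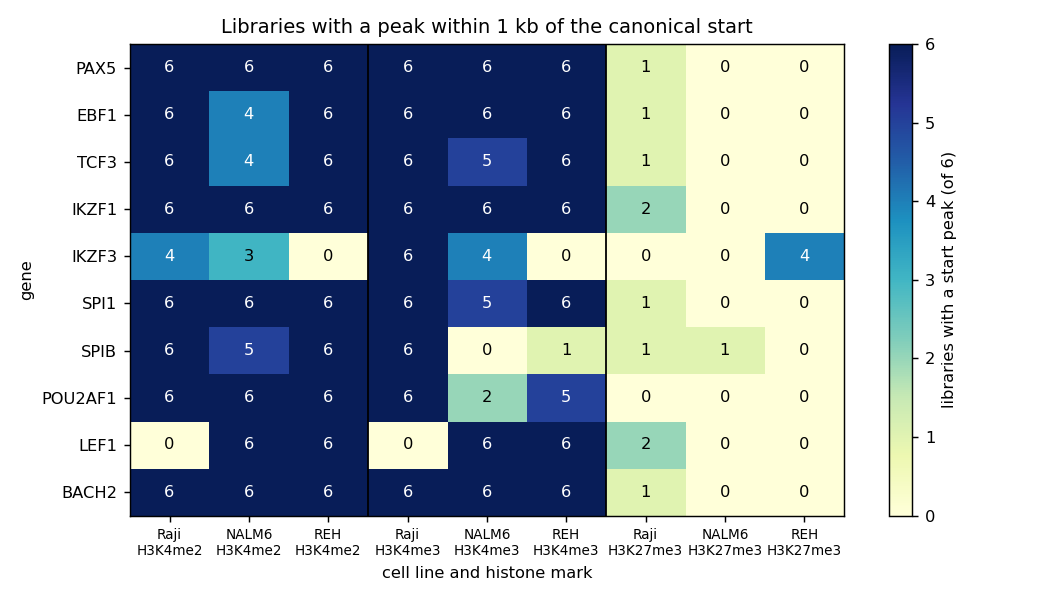
Number of libraries, of 6 per line and mark (3 untreated and 3 bryostatin), with a peak within 1 kb of the canonical start of each gene; each cell prints the number and darker cells are higher. LEF1 has 0 of 6 in Raji and 6 of 6 in NALM6 and REH for both H3K4 marks, and SPIB has H3K4me3 in 6 of 6 Raji libraries and in 1 of the other 12.

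LEF1, a transcription factor of the Wnt pathway that is expressed in precursor lymphocytes, had start peaks of both H3K4 marks in every NALM6 and REH library, 6 of 6 per mark, and in 0 of 6 per mark in Raji. Both marks in all untreated NALM6 libraries and in none of the 12 Raji libraries were found for 0.943% of protein-coding genes, and the same pattern for REH for 2.14%. With only the peaks at or above the median signal of each library, LEF1 kept the pattern in REH and lost it in NALM6. Its H3K4me3 signal, in multiples of the median peak of the library, was 3.79, 6.13 and 5.55 in untreated NALM6 and 7.32, 4.84 and 5.01 in untreated REH, so the leukemia lines overlapped. Its H3K4me2 signal was 0.846, 4.27 and 2.98 in untreated NALM6 and 6.97, 6.28 and 5.36 in untreated REH, where every REH library was higher on this scale, while the fitted difference was 0.17 (SE 0.15, adjusted p = 0.48 by limma). Further annotated LEF1 starts 2.65 and 3.74 kb from the canonical one had no peak of these marks in Raji either. LEF1-AS1, an antisense gene, begins close to LEF1, and peaks do not separate the strands.

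SPIB, an Ets family factor related to SPI1 that is used in mature B cells, had an H3K4me3 start peak in 6 of 6 Raji, 0 of 6 NALM6 and 1 of 6 REH libraries. A start peak in all Raji libraries and in none of NALM6 was found for 2.06% of protein-coding genes. The H3K4me3 signal of SPIB was 1.76, 1.82 and 1.69 times the median peak in untreated Raji and 0.186 in the only REH library with a peak. H3K4me2 was nevertheless present on the SPIB start in 5 of 6 NALM6 and 6 of 6 REH libraries. In untreated cells its H3K4me2 signal was 7.02, 5.04 and 5.66 in Raji, at most 1.84 in NALM6 and 2.73, 2.50 and 2.05 in REH, and the 3 lines did not overlap on this scale. Centred on the median region and without NALM6 replicate 1, REH was at -0.20 against NALM6 (adjusted p = 0.23 by limma). SPIB shares its start with an overlapping coding gene that has no symbol, so the peak cannot be given to one of them.

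IKZF3, the Ikaros family protein Aiolos of maturing B cells, had weak H3K4me3 where it had any. Its H3K4me3 start peak was present in 6 of 6 Raji, 4 of 6 NALM6 and 0 of 6 REH libraries, and a peak in all Raji and no REH libraries was found for 1.59% of protein-coding genes. The H3K4me3 signal was 0.654, 0.760 and 0.406 in untreated Raji and 0, 0.292 and 0.271 in untreated NALM6. These values lay below that of the median peak in every library. H3K4me2 was called at the start in 4 of 6 Raji libraries, at 0.952 to 1.95 times the median peak.  The gene ZPBP2 begins close to the IKZF3 start.

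PAX5, which commits cells to the B lineage and represses other fates, carried the widest H3K4me3 of the group. Its called width was 15140, 15590 and 16130 bp in untreated Raji, 3238, 16250 and 15370 bp in untreated NALM6 and 16420, 16200 and 12750 bp in untreated REH. Ranked among all genes with an H3K4me3 start peak in the same library, PAX5 stood between 1 and 7 in the 16 RPKM libraries, and at 22 and 11 in the untreated and bryostatin libraries of NALM6 replicate 1. A second cluster of annotated PAX5 starts 8.52 kb inside the gene, at chr9:37025748-37026575, was also marked by H3K4me2 and H3K4me3 in all libraries, and in NALM6 replicate 1 the called width was too short to reach it. Its H3K4me3 signal was 14.8, 10.8 and 10.8 times the median peak in untreated Raji and 19.0, 13.2 and 16.1 in untreated REH, and these ranges overlapped. Its H3K4me2 signal was 23.6, 9.86 and 16.4 in untreated Raji, 2.73, 11.9 and 13.2 in NALM6, and for REH 15.4, 15.5 and 14.1. PAX5 was thus far above the median peak in every line, lowest in NALM6 replicate 1.

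EBF1, the early B cell factor that acts before PAX5, also had wide H3K4me3 in Raji and REH, but not in every NALM6 library. The width was 7530, 8390 and 8050 bp in untreated Raji, 594, 11060 and 8370 bp in untreated NALM6 and 12440, 12390 and 7890 bp in untreated REH, and its rank ran from 7 to 4550 in the 16 RPKM libraries, the last with 1100 bp in NALM6 bryostatin replicate 3, and stood at 5385 and 2548 in the untreated and bryostatin libraries of NALM6 replicate 1. In Raji and REH alone it lay between 7 and 172. The H3K4me3 signal of EBF1 was 5.84, 2.97 and 3.39 in Raji and 9.02, 5.99 and 7.34 in REH, so that every REH library lay above every Raji library. Its H3K4me2 signal was 3.56, 0.930 and 1.93 in Raji and 5.72, 5.37 and 4.78 in REH, also without overlap. In NALM6 it was 0, 2.14 and 0.863, below every REH library.

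TCF3, the E protein that starts the B cell program with EBF1, had an H3K4me3 width of 5360, 5990 and 6120 bp in untreated Raji and 6890, 6930 and 6610 bp in untreated REH, without overlap. IKZF1, the Ikaros protein needed for lymphoid development, spread more, with 7530, 9130 and 9750 bp in Raji and 10230, 8150 and 1820 bp in REH. The H3K4me2 signal of TCF3 was 0.922, 3.53 and 4.65 in Raji, 0.643, 2.37 and 0 in NALM6, and for REH 7.53, 7.37 and 7.28, where the replicates lay close together and above all others. IKZF1 H3K4me2 was 5.43, 2.78 and 8.25 in Raji, 4.27, 2.80 and 1.86 in NALM6, and for REH 5.37, 4.88 and 3.76, with overlap between all lines. The IKZF1 peak often joined the peak on a second start cluster 3.96 kb downstream, which had H3K4me3 in 6 of 6 Raji, 4 of 6 NALM6 and 6 of 6 REH libraries. BACH2, a repressor that delays plasma cell differentiation, had 3220, 4160 and 4130 bp in Raji, 2623, 6310 and 6330 bp in NALM6, and for REH 5050, 4850 and 3070 bp. BACH2 H3K4me2 was 7.11, 4.11 and 4.50 in Raji, 1.26, 2.29 and 1.80 in NALM6, and for REH 3.45, 2.73 and 2.39, an order without overlap on this scale. The fitted difference of REH against NALM6 was 0.13 (SE 0.19, adjusted p = 0.71 by limma). Its H3K4me3 signal, at 5.59, 3.85 and 3.96 in Raji and 4.43, 4.40 and 4.67 in NALM6, overlapped between those lines.

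SPI1, the Ets factor PU.1 of myeloid and B cells, had an H3K4me3 width of 3540 to 3640 bp in untreated Raji, 0, 3000 and 3550 bp in untreated NALM6 and 2930 to 3360 bp in untreated REH. Its H3K4me3 signal was 4.43, 3.81 and 3.93 in Raji and 2.46, 1.75 and 1.70 in REH, without overlap. POU2AF1, the coactivator OBF1 that works with octamer-binding proteins, had an H3K4me3 signal of 0.961, 1.07 and 1.06 in Raji and 0.827, 0.585 and 0.436 in REH. In NALM6 a POU2AF1 H3K4me3 peak was called in 2 of 6 libraries, against 6 of 6 for H3K4me2.

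Untreated REH and Raji were compared region by region with limma on the log2 summed signal, centred on the median region, with Benjamini-Hochberg adjustment over all regions. For H3K4me2, 6 of 8 tested genes differed, against 46.8% of all 7999 regions. EBF1 was higher in REH by 1.83 on the log2 scale (SE 0.17), TCF3 by 0.93 (SE 0.12) and POU2AF1 by 0.49 (SE 0.15, adjusted p = 0.015). SPIB was lower in REH, at -1.04 (SE 0.14), as were BACH2 at -0.60 (SE 0.11) and IKZF1 at -0.57 (SE 0.10). PAX5 (0.01, SE 0.11) and SPI1 (-0.07, SE 0.12) did not pass. The adjusted p of the other called genes lay at 0.00069 or below. Calls in this comparison were common among regions at large. The 6 called genes had groups that did not overlap in the fitted values, as did 56.0% of all regions for H3K4me2 and 60.8% for H3K4me3. Those values are centred on the median region and can differ from multiples of the median peak.

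For H3K4me3, 5 of 7 tested genes differed, against 51.3% of all 6729 regions. EBF1 was higher in REH by 1.32 (SE 0.12, adjusted p = 1.3e-05), PAX5 by 0.80 (SE 0.11) and TCF3 by 0.41 (SE 0.10). SPI1 was lower, at -0.71 (SE 0.12), and POU2AF1 at -0.53 (SE 0.20, adjusted p = 0.049). BACH2 (-0.17, adjusted p = 0.081) and IKZF1 (-0.18) did not pass. These are differences of total signal, which grows with width: with the peak maximum instead, EBF1 was at -0.27 and TCF3 at -0.05, neither past the test, and with the mean signal per base TCF3 was at -0.03. Of the 7 genes, 1 was called with the maximum and 2 without centring. The H3K4me3 call of POU2AF1 was lost without Raji replicate 2 (adjusted p = 0.14) or Raji replicate 3 (adjusted p = 0.14). It was also lost without REH replicate 1 (adjusted p = 0.056) or REH replicate 3 (adjusted p = 0.15), and with the replicate block (adjusted p = 0.059 by limma). The H3K4me2 call of POU2AF1 was lost without Raji replicate 2 (adjusted p = 0.091) or REH replicate 3 (adjusted p = 0.066). That H3K4me2 difference ran from 0.26 to 0.61 with 1 library left out.

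In width, EBF1 alone of 7 tested genes differed between REH and Raji, against 11.0% of regions, and was wider in REH by 0.71 (SE 0.14, adjusted p = 0.0055), and without centring by 0.54 (adjusted p = 0.050), not past the test. TCF3, with groups that did not overlap (as in 29.2% of regions), was at 0.40 (SE 0.15, adjusted p = 0.10), and PAX5 at 0.20 (SE 0.17). IKZF3, SPIB and LEF1 could not be tested for H3K4me3 because a region called in all 6 libraries was required. This leaves out genes whose peak was missing in most or all libraries of 1 line. Untreated REH had a start peak of SPIB in 1 of 3 libraries and of IKZF3 in 0 of 3, and untreated Raji had one of LEF1 in 0 of 3.

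**Figure D2:**
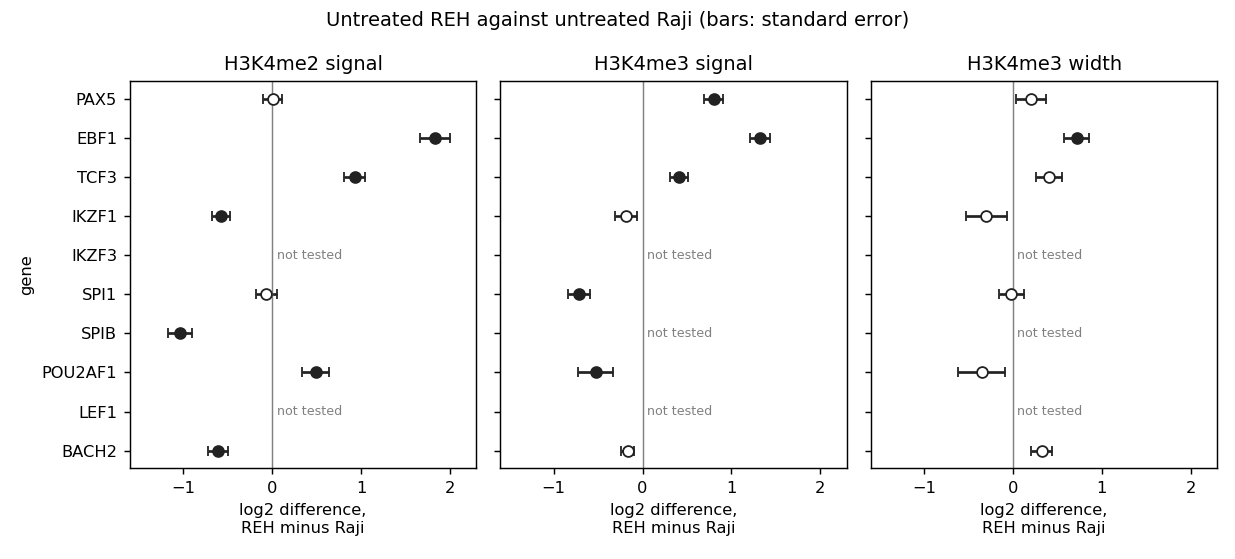
Log2 difference of untreated REH minus untreated Raji (3 libraries each) in H3K4me2 signal, H3K4me3 signal and H3K4me3 width, with standard errors; filled points passed the adjusted p of 0.05. EBF1 lies to the right in all 3 panels (1.83, 1.32 and 0.71), SPIB lies to the left for H3K4me2 (-1.04).

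Comparisons with NALM6 gave fewer calls, and its replicate 1 moved with them. Between REH and NALM6, TCF3 alone of 8 genes differed in H3K4me2, by 2.00 (SE 0.46, adjusted p = 0.033), against 11.4% of regions. Untreated NALM6 replicate 3 had no TCF3 H3K4me2 peak within 1 kb of the canonical start, so its fitted value comes from elsewhere in the merged region. For H3K4me3 none of 6 genes was called by limma, against 7.15% of regions, although 4 were at an unadjusted p under 0.05, as were 23.6% of regions. In width none of 6 was called, against 0.0197%, and 1 (BACH2) was at an unadjusted p under 0.05, as were 7.17% of regions. The call of TCF3 was lost without NALM6 replicate 3 or any 1 REH library (adjusted p from 0.052 to 0.13), with equal numbers of peaks (1.94, adjusted p = 0.055) and without centring (3.47, adjusted p = 0.64).

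Between NALM6 and Raji, BACH2 was lower in NALM6 in H3K4me2 by -0.77 (SE 0.20, adjusted p = 0.032), 1 of 7 genes against 18.9% of regions. EBF1 was higher in H3K4me3 by 0.74 (SE 0.19, adjusted p = 0.030), 1 of 5 genes against 20.2%. BACH2 was wider in H3K4me3 by 0.87 (SE 0.15, adjusted p = 0.013), 1 of 5 genes against 4.25%. All 3 calls were lost without any 1 of the Raji libraries (adjusted p from 0.057 to 0.15), that of BACH2 H3K4me2 also without NALM6 replicate 3 (adjusted p = 0.095) and that of EBF1 without NALM6 replicate 2 (adjusted p = 0.098) or 3 (adjusted p = 0.091). The difference of EBF1 turned to -0.43 without centring and to -0.07 with the maximum signal, and it was 0.38 with the mean signal per base and 0.60 with quantile normalization, none past the test. Its call was also lost with the replicate block (adjusted p = 0.093). Without centring BACH2 width was at 0.31 (adjusted p = 0.70) and BACH2 H3K4me2 at -1.95 (adjusted p = 0.81), and with the maximum the latter was at -0.58 (adjusted p = 0.14), so that these calls were lost too.

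Without NALM6 replicate 1 more genes were called, as were more regions. Between REH and NALM6, 3 of 9 genes then differed in H3K4me2 (33.8% of regions). TCF3 was at 1.37, EBF1 at 0.80 (1.48 with all libraries) and IKZF1 at 0.31 (adjusted p = 0.043 by limma), against -0.061 with all libraries. For H3K4me3, 5 of 7 differed (44.7%). TCF3 at 0.69 (0.43 with all libraries), IKZF1 at 0.48, SPI1 at 0.44 and EBF1 at 0.40 were higher in REH, and BACH2 at -0.39 was lower. Between NALM6 and Raji, 5 of 8 differed in H3K4me2 (32.9%) and 6 of 7 in H3K4me3 (45.1%). For H3K4me2 EBF1 was higher in NALM6 by 1.01, against 0.31 with all libraries. Lower were IKZF1 at -0.90 (-0.55 with all libraries), SPIB at -0.86, BACH2 at -0.76 and TCF3 at -0.46 (-1.11 with all libraries). In the H3K4me3 fit EBF1 was higher in NALM6 by 0.93, PAX5 by 0.44 and BACH2 by 0.24, and SPI1 was lower at -1.14, IKZF3 at -1.11 and IKZF1 at -0.64. These values rest on 2 NALM6 libraries, of which replicate 3 had no TCF3 H3K4me2 peak within 1 kb of the canonical start.

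Away from annotated starts, H3K4me2 regions inside introns were called in every untreated library of 1 line and in none of another, and 5 are named. They are 5 of the 29 H3K4me2 regions away from starts at these genes, against 22.3% of 9643 such regions at all protein-coding genes. In PAX5, chr9:36993411-36998740 was called in 3 of 3 untreated NALM6, 1 of 3 Raji and 0 of 3 REH libraries, and chr9:37010691-37012850 in 3 of 3 Raji libraries and in none of the others. In EBF1, chr5:159010151-159012810 was called in 3 of 3 Raji libraries and in 0 of 3 of NALM6 and of REH. In LEF1, chr4:108159301-108161690 was called in 3 of 3 untreated REH libraries and in none of the other untreated ones, and in BACH2, chr6:90283901-90287280 was called in 3 of 3 REH, 2 of 3 Raji and 0 of 3 NALM6 libraries. After bryostatin the first PAX5 region was called in 2 of 3 libraries each of Raji and NALM6 and in none of REH. The EBF1 region was then called in 3 of 3 Raji and in 1 of 3 libraries each of NALM6 and REH, the LEF1 region in 2 of 3 libraries each of NALM6 and REH, and the BACH2 region in 2 of 3 NALM6 libraries. H3K4me2 also covered POU2AF1 starts 18.8 to 21.8 kb upstream of the canonical start in 5 of 6 Raji libraries and in none of NALM6 and REH, a pattern at 0.579% of the other starts of all protein-coding genes. An internal IKZF3 start 86.1 kb downstream had H3K4me3 in 5 of 6 Raji libraries and in none of the others, a pattern at 0.505%. These rules were applied to all genes after the regions had been seen.

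Bryostatin against untreated cells was compared within each line. Without the replicate as a block, none of the 10 genes was called by limma in any of these fits. At starts, this concerned 7 genes tested for H3K4me2 in NALM6 (0.0% of regions called), 9 in REH (1.45%) and 8 in Raji (0.0%), and 5 genes for H3K4me3 in NALM6 (0.0%), 7 in REH (1.67%) and 9 in Raji (0.155%). In Raji 1 gene per mark was at an unadjusted p under 0.05, as were 6.72% of regions for H3K4me2 and 5.65% for H3K4me3, and in the other lines none was. With the block, IKZF1 H3K4me3 in Raji was called (adjusted p = 0.033 by limma). SPI1 H3K4me3 in Raji and REH, TCF3 H3K4me2 in REH and PAX5 H3K4me3 in NALM6 were then also at an unadjusted p under 0.05. Their adjusted p ran from 0.16 to 0.74, and the share of all regions under it was not counted. For H3K4me3 width the shares of regions called were 0.0% in NALM6, 0.0% in REH and 0.0442% in Raji, and no gene was at an unadjusted p under 0.05. Over gene bodies with flanks they were 0.0%, 0.141% and 0.0% for H3K4me2 in NALM6, REH and Raji and 0.0%, 0.394% and 0.114% for H3K4me3. There, without the block, 1 gene (IKZF1, Raji H3K4me3) was at an unadjusted p under 0.05, as were 5.27% of all genes tested in that fit. With the block more genes were under it and none was called, the lowest adjusted p being 0.092 by limma (IKZF1, Raji H3K4me3).

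Without the block, the 2 genes at an unadjusted p under 0.05 at starts were both in Raji, while the lowest adjusted p was that of POU2AF1 H3K4me2 in REH (-0.18, SE 0.090, adjusted p = 0.54 by limma). The IKZF1 H3K4me3 signal was 7.84, 4.33 and 3.83 times the median peak in untreated replicates 1, 2 and 3 and 4.51, 3.79 and 2.71 after bryostatin. The value was lower in each replicate of the same number, while the groups overlapped. The log2 difference was -0.36 (SE 0.14, adjusted p = 0.82 by limma), and with the replicate as a block, since the numbers pair these libraries, the same difference had an SE of 0.069 and an adjusted p of 0.033. Without the block it was -0.21 when untreated replicate 1 was left out, -0.25 without bryostatin replicate 3 and -0.10 without centring. POU2AF1 H3K4me2 was 3.05, 1.42 and 2.80 in untreated Raji and 5.79, 4.43 and 2.48 after bryostatin, overlapping on this scale. The fitted difference was 0.39 (SE 0.16, adjusted p = 0.72 by limma), without overlap of the centred values, as in 10.7% of regions. It was 0.21 without untreated replicate 2, and with the mean signal per base POU2AF1 turned to -0.10.

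At starts the estimates were tightest in REH for the genes tested there, except for PAX5. Its SE was 0.14 in REH against 0.071 in Raji for H3K4me3, and 0.12 against 0.10 for H3K4me2. In REH PAX5 H3K4me3 was 10.9, 17.8 and 14.8 after bryostatin against 19.0, 13.2 and 16.1 before. The 7 genes tested there for H3K4me3 lay between -0.16 (SPI1) and 0.01 (IKZF1), with SE from 0.058 to 0.14. In Raji the 9 genes tested for H3K4me3 lay between -0.36 (IKZF1) and 0.21 (SPI1), with SE from 0.071 to 0.28. In NALM6 the SE for H3K4me3 were 0.20 to 0.24, and EBF1 H3K4me2 had the largest estimate of start signal in the 3 lines at 0.48 (SE 0.59, adjusted p = 0.999 by limma), a value within its own error. The 2 NALM6 replicate 1 libraries had no EBF1 H3K4me2 peak within 1 kb of the canonical start, so their fitted values come from elsewhere in the merged region. With replicate 1 left out of both NALM6 groups the EBF1 H3K4me2 difference was 0.26 (adjusted p = 0.29 by limma), IKZF1 H3K4me2 moved from 0.14 to 0.50 (SE 0.10, adjusted p = 0.11) and SPI1 H3K4me3 was at -0.35 (SE 0.14, adjusted p = 0.94). These 3 were then at an unadjusted p under 0.05, but the share of all regions under it was not counted, so nothing is read from their number. None of the genes was called, nor was any of the 8891 regions tested for H3K4me2 and the 4352 for H3K4me3. Over gene bodies larger estimates included IKZF3 H3K4me3 in Raji (-0.65), LEF1 H3K4me2 in NALM6 (0.56) and EBF1 H3K4me2 in Raji (0.56), none called. LEF1 H3K4me2 in NALM6 was 0.846, 4.27 and 2.98 untreated and 2.47, 5.58 and 5.56 after bryostatin. These groups overlapped, while the value was higher in each replicate of the same number. The fitted difference, on centred values, was 0.089 (SE 0.18, adjusted p = 0.999 by limma). With the replicate block it had an adjusted p of 0.77. In Raji no LEF1 start peak of either mark was called after bryostatin.

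The response to bryostatin was also compared between lines by an interaction term. None of the 10 genes was called. Among all regions, REH against NALM6 had 0.0% called for either mark and NALM6 against Raji 0.0% for either mark, and REH against Raji had 0.0275% (H3K4me2) and 0.0776% (H3K4me3). At an unadjusted p under 0.05 was POU2AF1 H3K4me2 in REH against Raji (-0.56, SE 0.19, adjusted p = 0.66 by limma), as were 6.59% of regions. POU2AF1 H3K4me2 was also under it in NALM6 against Raji (-0.66, SE 0.30), as were 1.0% of regions. For H3K4me3 in REH against Raji, SPI1 (-0.37, SE 0.16) and IKZF1 (0.36, SE 0.17) were under it, as were 4.45% of regions. These fits took no replicate block. With a block within each line, none of the 10 genes was called either. The lowest adjusted p was then 0.096 by limma (SPI1 H3K4me3, REH against Raji).

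H3K27me3 was called over BACH2 in every Raji library and in no other. The length called over the gene and its 3 kb flanks was 3580, 207693 and 325783 bp in untreated Raji and 38780, 22690 and 134110 bp after bryostatin, out of a window built on a gene of 370.3 kb. In the 12 H3K27me3 libraries of NALM6 and REH it was 0 bp, although the REH libraries had 45.3 to 231 Mb of H3K27me3 called in all when untreated. In NALM6 replicate 1 only 1.16 Mb (untreated) and 0.366 Mb (bryostatin) were called in all, so a missing peak says little there. H3K27me3 over a gene in all 6 Raji libraries and in no library of the other lines was found for 17 genes, 0.0849% of protein-coding genes, and BACH2 was the only one of the 10. Leaving out a Raji library can only keep or raise this number, and it was also 17 without untreated Raji replicate 2.

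The covered share of BACH2 was 0.951%, 55.2% and 86.6% in untreated Raji and 10.3%, 6.03% and 35.6% after bryostatin, so the groups overlapped. The difference was -30.2 percentage points (exact two-sided permutation test, p = 0.40, where the smallest possible p with 3 libraries against 3 is 0.10), and -26.4 without untreated replicate 2. Without untreated replicate 3 it was -10.7. The share moved with depth, at 5.12, 22.9 and 32.4 M mapped reads untreated and 7.74, 5.33 and 14.5 M after bryostatin, and the part of depth in the difference was not tested. With equal numbers of peaks the difference was -15.3. Coverage was uneven along the gene, divided into 10 equal parts: in untreated replicate 3 it was 56.0% in the part next to the start and 98.2% in the last part, and in bryostatin replicate 3 10.7% and 62.8%. The BACH2 start itself, whose CpG-rich promoter is printed above, carried both H3K4 marks in 6 of 6 Raji libraries and an H3K27me3 peak in 1, the library that stood apart.

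**Figure D3:**
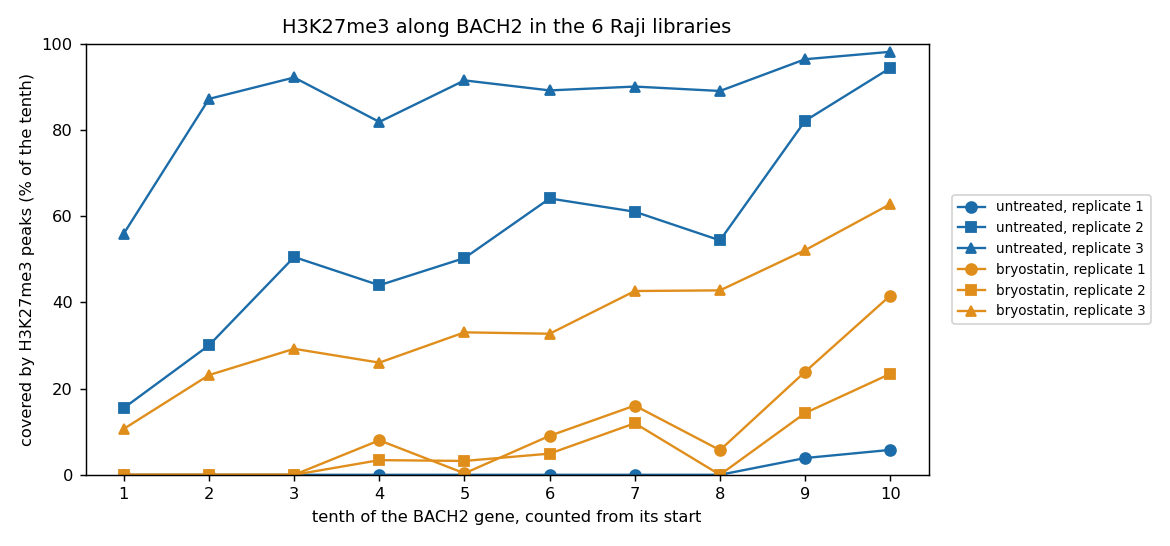
Percent of each of 10 equal parts of the BACH2 gene, counted from its start, that was covered by H3K27me3 peaks in the 6 Raji libraries, blue for untreated and orange for bryostatin, with 1 marker shape per replicate. In all 6 libraries the last part is the most covered (5.78% to 98.2%) and no part is below the first.

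Of the other genes, POU2AF1 had H3K27me3 in all 3 lines, far from its canonical start. The called length was 0, 8230 and 9470 bp in untreated Raji, 0, 8940 and 7500 bp in untreated NALM6 and 2230, 0 and 0 bp in untreated REH. The peaks lay at the distal annotated starts 70.7 and 76.4 kb upstream, the latter covered in 5 of 6 Raji libraries, and the canonical start had none. LEF1, whose start had no called H3K4 peak in Raji, had 4166 bp of H3K27me3 in untreated Raji replicate 3 and 920 bp in bryostatin replicate 3, and 0 bp in the other 4 Raji libraries. IKZF3 had 820 to 1240 bp at its start in 4 of 6 REH libraries, the line in which it had no H3K4 start peak. IKZF1 had 0, 6630 and 2830 bp in untreated Raji and 860 bp in 1 bryostatin library, and SPIB had 2430 bp in 1 NALM6 library. The only H3K27me3 peaks over PAX5, EBF1, TCF3 and SPI1, and the only one over SPIB in Raji, came from the library that stood apart, and without it these genes had none in Raji.

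Other genes of the same network were read in the same fits, 25 further B lineage regulators and 18 known targets of B lineage factors. Of the regulators, 17 were tested for H3K4me2 between REH and Raji, and 8 were higher in REH and 5 lower, against 46.8% of regions called, with RUNX3 at -3.19, GFI1 at 2.34 and ETV6 at -2.16. Of 14 tested for H3K4me3, 7 were higher and 1 lower, against 51.3% called, with GFI1 at 2.68, SOX4 at 1.78 and TCF4 at 1.35. The median over these 14 was 0.29, against 0.02 over all regions. Of the targets, 10 were tested for H3K4me2, and 1 was higher and 4 lower (LYN -1.63, SYK -1.25 and CD72 -0.70), and of 6 tested for H3K4me3, 2 were higher and 2 lower (CD22 -1.41, SYK -1.13 and BLNK 0.70, the last with overlapping groups).

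After bryostatin, none of the 25 regulators was called at the start in any line or H3K4 mark. The known targets were called in REH H3K4me3 alone, where of 9 tested 1 rose and 2 fell, against 1.67% of regions. CD22, a surface receptor of B cells, rose by 0.62 (adjusted p = 0.0048), and IGLL1, part of the surrogate light chain, fell by 0.73 (adjusted p = 0.0031), as did CD79B, a chain of the B cell receptor, by 0.38 (adjusted p = 0.041).

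The genes whose start signal followed each factor most closely over the 18 libraries of a mark were found by Pearson correlation of log2 signal. For H3K4me3 these were HACD1 (r = 0.998) and FADS2 (r = 0.998) for LEF1, MAP3K21 (r = 0.998) and NFE2L3 (r = 0.998) for SPIB, PSMB8 (r = 0.980) and FAM227A (r = 0.966) for PAX5, and CDC25C (r = 0.984) and CYP20A1 (r = 0.979) for EBF1. The libraries share lines, depth and, for NALM6 replicate 1, scaling, so the values describe these libraries. LEF1 and SPIB had a peak in 12 and 7 of the 18 libraries, as did the genes named beside them. A pseudocount of 0.1 times the median peak gave the libraries without a peak the same low value. An r near 1 for these genes can therefore come from the shared presence of a peak alone.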

How the data were processed

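The authors trimmed Cut&Tag reads (Trim Galore), aligned them to hg38 (Bowtie2), normalised coverage and called peaks per library with SEACR in stringent mode; the submitters' processing notes also name bcl2fastq and DESeq2, and give no versions. The deposited signal values are the total and the maximum coverage of each peak, in RPKM over 10 bp bins in 48 libraries and in another scaling in 6. The third mark is H3K27me3 in the labels, while the design text writes a dimethyl form. Libraries were grouped by their labels, and 0 per-sample columns were unused. The 18 IgG libraries were not analysed here.

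The members and lists were chosen with earlier results of these data known. Peaks of the compared libraries overlapping by 1 bp were merged, and regions called in all 6 libraries (12 for interactions) were tested on log2 total signal, centred on the median region, with limma 3.58.1 (trend) in R 4.3.3 and Benjamini-Hochberg adjustment at 0.05. A merged region can reach past the 1 kb window, so a library with no peak near the canonical start may still enter a fit. Coverage by H3K27me3 was compared by exact permutation. Python 3.11.15, pandas 2.3.3 and pysam 0.24.0 did the rest, and the fits were tested on simulated data. All 10 members were read in each comparison and those called are named, with at most 3 called genes per list, 2 regions per member and 2 nearest genes. Within lines, libraries of the same number deviated together for every pair except in Raji H3K4me2. Their correlations were 0.48 to 0.54 in Raji H3K4me3, against at most 0.19 for different numbers, and only 0.13 to 0.21 in REH H3K4me2. In NALM6 they were 0.40 to 0.45 (H3K4me2) and 0.63 to 0.68 (H3K4me3), where different numbers reached 0.41 and 0.57. The numbers thus pair the libraries clearly in Raji H3K4me3 and less clearly in NALM6. Alternatives were the signal measure, scaling, region filters, windows, the replicate block and libraries left out; 1 was added after seeing the data (leaving out Raji H3K27me3 untreated replicate 2).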

Additional observations from a re-analysis of the deposited data

How the results depend on the processing

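No gene was called after bryostatin, at starts, in width or over gene bodies, under any alternative other than the replicate block, with which IKZF1 (-0.36) gave 1 call for H3K4me3 in Raji. The block also raised the count over all regions from 14 to 132 there, and in REH from 157 to 305 for H3K4me2 and from 121 to 202 for H3K4me3. Between untreated lines, numbers did not pair the libraries (same-number correlations -0.22 to 0.30). With the replicate block there, NALM6 against Raji gave 2 genes for H3K4me2 and 0 for H3K4me3, and no other count of genes moved by more than 1.5 times.

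Without centring, all regions shifted by 0.25 (H3K4me2), 0.18 (H3K4me3) and -0.18 (width) in REH against Raji, by -1.18, -1.17 and -0.56 in NALM6 against Raji, by 1.47, 1.35 and 0.37 in REH against NALM6, and by 0.24 and 0.26 after bryostatin in Raji. The genes called then numbered 0 in REH against NALM6 (H3K4me2), 0 and 0 in NALM6 against Raji, 2 in REH against Raji (H3K4me3) and 0 and 0 for width against Raji. For REH against NALM6, H3K4me2 gave 2 genes with the mean signal per base, 2 with quantile normalization, 0 with equal numbers of peaks and 3 without replicate 1 of both lines, and H3K4me3 gave 2 with quantile normalization, 6 without replicate 1 of both lines and 2 with regions called in at least 4 of 6 libraries. For NALM6 against Raji, H3K4me2 gave 5 without replicate 1 of both lines and 2 with regions in at least 4 of 6, and H3K4me3 gave 0 with the maximum, 0 with the mean, 7 without replicate 1 of both lines and 4 with regions in at least 4 of 6. For REH against Raji, H3K4me3 gave 1 with the maximum signal. In width, NALM6 against Raji gave 2 without replicate 1 of both lines and REH against Raji 2 with quantile normalization. With the higher-signal peaks alone, the LEF1 pattern in NALM6 was found for 0 of the 10 genes.

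Called values that changed sign were EBF1 H3K4me3 in NALM6 against Raji (-0.073, maximum, and -0.43, no centring), and in REH against Raji EBF1 (-0.27, maximum) and TCF3 (-0.050, maximum, and -0.029, mean). Of values at an unadjusted p under 0.05 that were not called, POU2AF1 H3K4me2 turned after bryostatin in Raji (-0.10, mean per base) and in REH against NALM6 (-0.14, mean). For H3K4me3, BACH2 (0.85, no centring, and 0.032, mean), IKZF1 (-0.024, mean) and EBF1 (-0.19, maximum) turned in REH against NALM6, IKZF1 (0.11, mean) and PAX5 (-0.82, no centring, and -0.59, quantile normalization) in NALM6 against Raji, and BACH2 (0.016, no centring) in REH against Raji. IKZF1 H3K4me2 in REH against NALM6 turned from -0.061 to 0.31 without NALM6 replicate 1. The cause was not tested. Leaving out 1 library gave 0 to 3 and 0 to 5 genes (REH against NALM6), 0 to 5 and 0 to 6 (NALM6 against Raji) and 5 to 6 and 4 to 6 (REH against Raji) for H3K4me2 and H3K4me3, and 0 to 0, 0 to 2 and 1 to 1 for width. The highest of these counts with NALM6 signal came without its replicate 1. H3K27me3 coverage in Raji after bryostatin ranged from -53.6 to -10.7 points for BACH2, from -3.87 to 0.462 for POU2AF1 and from -1.39 to 0.241 for LEF1, the last 2 turning without untreated replicate 3. The H3K27me3 libraries of known depth ranged from 5.12 to 38.9 M mapped reads, and the part of depth in these values was not tested.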
